A study of Astyanax mexicanus with 6 samples.

Results

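The genes described here encode the cadherins, protocadherins, claudins, desmosome proteins, catenins and connexins that hold neighboring cells together, measured in embryonic fibroblast lines of the Mexican tetra *Astyanax mexicanus*. They were taken by gene symbol: every listed gene whose name begins with *cdh* and a digit, *pcdh*, *cldn*, *ocln*, *tjp* and a digit, *dsp*, *dsc*, *dsg*, *pkp* and a digit, *jup*, *ctnna*, *ctnnd*, *epcam*, *gja*, *gjb*, *gjc* or *gjd*, in upper or lower case. This rule found 131 of the 27420 genes listed, of which 18877 carried a name. The lines compared were SEF, from surface fish, and PEF, from Pachón cavefish, a blind cave population of the same species. Both were wild-type and untreated, and 3 libraries were made from each. Per the study's methods, cells of pooled early embryos were dissociated, grown in serum on gelatin and cloned, the clones were carried over many passages, and the cells were detached with an enzyme before RNA was extracted. Each population is therefore represented by a single line, so population, clone and culture history cannot be told apart. A figure legend of the study counts fibroblast libraries as independent biological replicates, while neither the labels nor the methods say whether the libraries of a line came from separate cultures. The p-values measure only the spread between these samples, which could in part be technical.

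Adherens junctions join cells through classical cadherins, whose outer domains bind cadherins of the next cell and whose tails bind catenins that reach the actin skeleton. Desmosomes use a parallel set of cadherins, the desmogleins and desmocollins, which are tied to intermediate filaments through plakoglobin, plakophilins and desmoplakin. Tight junctions seal epithelial sheets with claudins and occludin anchored on zonula occludens proteins, while connexins form the channels of gap junctions. Fibroblasts are mesenchymal cells, which typically carry N-cadherin and cadherin-11 and few tight junctions. Protocadherins are a larger cadherin branch best known from the nervous system. Many of these genes exist as duplicate copies in teleosts, marked a and b.

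Reads on genes numbered 33381563 to 39156850 in the SEF libraries and 36790663 to 42506026 in the PEF libraries. PEF replicate 1 stood furthest from the other libraries of its line, with a chi-square per gene of 140 and 173 against them, compared with 17.9 between PEF replicates 2 and 3. All 10 listed fibroblast and mesenchymal markers had reads, with a summed level of 7523 to 10069 TPM (transcript abundance scaled for gene length and depth) in SEF and 7356 to 11792 in PEF. *col1a1a* and *col1a2* carried most of this sum. Of the 10, 6 were called (60%, beside 63.5% of all genes tested). In PEF, 3 were higher (30%, beside 30.4%) and 3 lower (30%, beside 33.1%). *postnb* rose from a mean of 0.26 to 98.9 TPM, while *vim* fell from 3.32 to 1.23 TPM (adjusted p = 5.27e-06 and 0.0038 by edgeR). Of the 11 listed epithelial markers, 6 were tested. In PEF, 3 were higher (50%, beside 30.4% of all genes tested) and 2 lower (33.3%, beside 33.1%). The simple-epithelium keratins *krt8*, *krt18a.1* and *krt18b* were higher and carried most of the summed level, which was 3030 to 4182 TPM in SEF and 8141 to 9342 TPM in PEF. The epithelial regulator *tp63* (log2 fold change -3.05, adjusted p = 0.00512 by edgeR, and -2.38 without SEF replicate 1) and *cldn7b* were lower. The keratin *krt4* was not called (log2 fold change -0.20, adjusted p = 0.74), but was lower without PEF replicate 1 (-0.997, adjusted p = 0.0106). The defining epithelial marker *epcam*, an adhesion molecule that the rule also takes, had at most 3 reads in any library. Endothelial markers summed to 98.8 to 141 TPM in SEF and 38.9 to 43.0 TPM in PEF, but *cdh5*, the endothelial VE-cadherin, had 0 reads in all 6 libraries. Muscle and blood markers summed to less than 5 TPM in every library. Neural markers reached 8.10 to 25.1 TPM in SEF, mostly *gfap*, against 5.02 to 5.32 TPM in PEF, mostly *snap25a*. These went in opposite directions. *gfap* was lower in PEF (log2 fold change -4.09, adjusted p = 0.000166 by edgeR). *snap25a* was higher, at a mean of 4.34 TPM against 2.32 TPM (log2 fold change 0.99, adjusted p = 0.0185). Pigment markers were at 1.23 to 2.66 TPM in SEF and 5.61 to 13.5 TPM in PEF. Nearly all of the pigment sum in PEF was *TYR*, at 13.5, 5.88 and 5.49 TPM. The pigment marker *mitfa* went the other way, with 8, 13 and 36 reads in SEF and 0, 0 and 3 in PEF, and *sox10* had 0 reads. In bulk samples, fewer cells of a type and less RNA per cell cannot be told apart.

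Of the 131 junction genes, 72 had enough reads to be tested and 55 differed between the lines at an adjusted p under 0.05 in edgeR's quasi-likelihood test. That is 76.4% of those tested, beside 63.5% of all genes tested. In PEF, 23 junction genes were higher, 31.9% of those tested, beside 30.4% of all genes tested. Another 32 were lower, 44.4% of those tested, beside 33.1% of all genes tested. Differences over 4-fold were found in 30 junction genes, 11 higher and 19 lower, or 41.7% of those tested compared with 23.6% among all genes. The median log2 fold change of PEF over SEF was -0.40 for the junction genes and -0.02 for all genes. In 57 junction genes (79.2%, beside 70.8% of all genes) every library of a line lay on the same side of every library of the other. The remaining 17 tested junction genes were not called, with log2 fold changes from -2.14 to 0.88.

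The count was 55 without PEF replicate 1 as well, of 74 tested. Another 59 junction genes were too low to test, with at most 21 reads in any library, and 40 of them had no more than 3 reads in every library. A mean of at least 5 TPM was reached by 30 junction genes in SEF and 28 in PEF, 22 of them shared. By family, calls were spread over cadherins and protocadherins in both directions, while 7 of the 8 claudins called were lower in PEF. No gene was listed under the symbols *cdh1* (E-cadherin) or *gja1*. E-cadherin was not analysed here, and connexin-43, the product of *gja1*, is listed as *cx43* and was looked at with the other connexins of that naming.

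**Figure D1:**
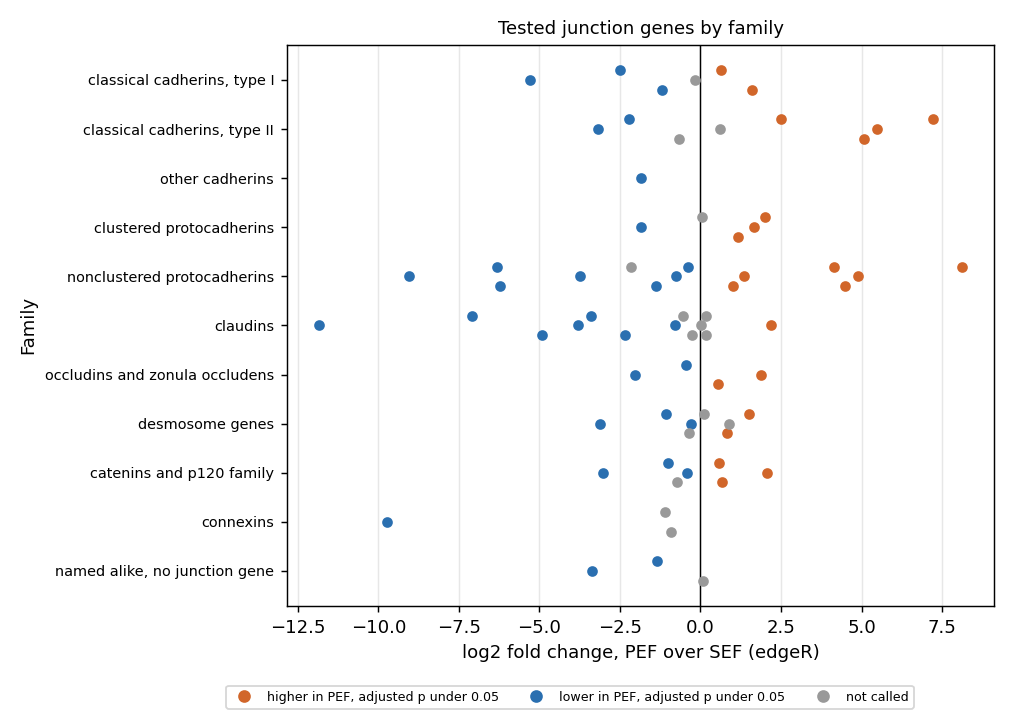
Log2 fold change of PEF over SEF (horizontal axis) of the 72 junction genes tested, 1 point per gene, grouped by family (vertical axis) and marked by whether edgeR's adjusted p was under 0.05. Called genes lie on both sides of 0 in most families, while claudins are mostly on the negative side, and values of genes with 0 reads in a line depend on the prior count of the fit.

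Cadherin-11, cadherin-6 and N-cadherin made up nearly all of the classical cadherin RNA of both lines, in different proportions. Cadherin-11 (*cdh11*), a type II cadherin typical of mesenchyme and bone-forming cells, was at 403, 364 and 323 TPM in SEF replicates 1 to 3 and at 44.8, 36.5 and 34.0 TPM in PEF replicates 1 to 3. All SEF libraries lay above all PEF libraries, and the log2 fold change was -3.17 (SE 0.14, adjusted p = 4.11e-06 by edgeR), 8.99-fold lower in PEF. Cadherin-6 (*cdh6*), a type II cadherin known from kidney and neural crest, was at 13.6, 16.3 and 12.3 TPM in SEF and at 397, 442 and 467 TPM in PEF. Its libraries were separated in the opposite direction, by a log2 fold change of 5.07 (SE 0.16, adjusted p = 1.71e-06 by edgeR) or 33.7-fold. Among all listed genes, those at 0 TPM included, *cdh6* stood at the 78.6th percentile in SEF and the 98.8th in PEF, and *cdh11* at the 98.6th and 90.4th.

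N-cadherin (*cdh2*), the classical cadherin of neural and mesenchymal cells, was listed in 2 copies. The copy ENSAMXG00000007485, written *CDH2*, was at 118, 104 and 95.2 TPM in SEF and 363, 291 and 266 TPM in PEF, 3.03-fold higher (log2 fold change 1.60, SE 0.14, adjusted p = 6.4e-05 by edgeR). The copy ENSAMXG00000040605, written *cdh2*, was at 113, 97.1 and 88.2 TPM in SEF and 109, 163 and 166 TPM in PEF. PEF replicate 1 lay within the SEF range for this copy, and its log2 fold change of 0.65 (SE 0.21, adjusted p = 0.0288) was lost without SEF replicate 2 or 3 or PEF replicate 2 or 3, with adjusted p from 0.0824 to 0.093. A read falling on both copies could be split or discarded by the counting, so the levels of each copy are uncertain. The sums over all 19 classical cadherins were 669, 597 and 532 TPM in SEF and 931, 947 and 949 TPM in PEF, without overlap.

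**Figure D2:**
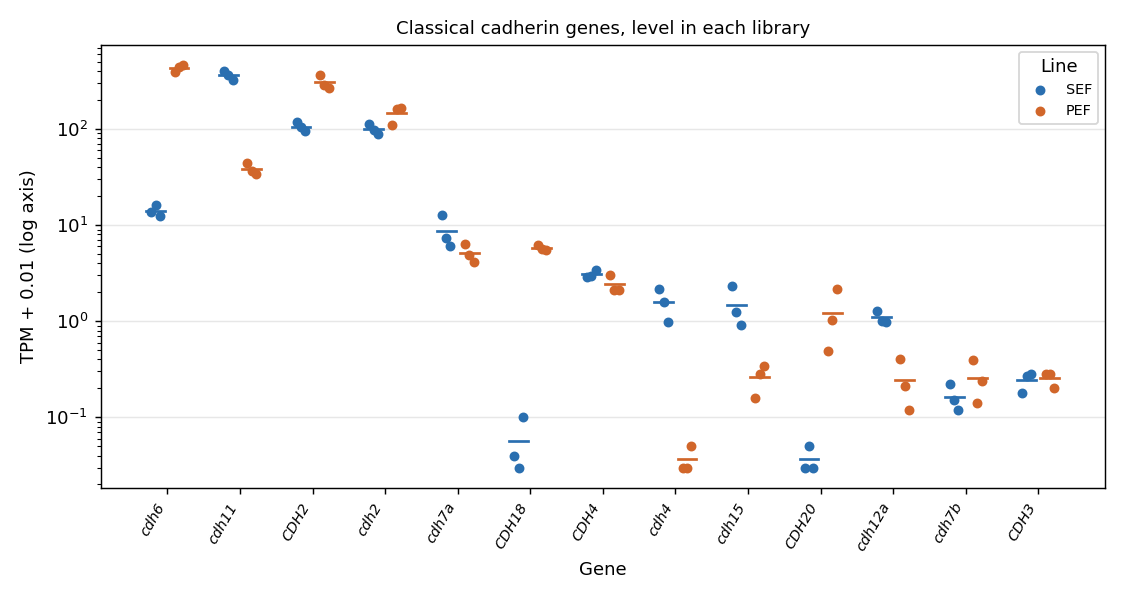
Level of the better covered classical cadherins in each library on a logarithmic axis of TPM + 0.01, where points are the 3 SEF and 3 PEF libraries and bars the line means. The points of *cdh11* are higher in SEF (323 to 403 TPM) and those of *cdh6* and *CDH18* higher in PEF, with no overlap.

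As a share of the summed classical cadherin TPM, *cdh11* took 60.7% ± 0.376 (SD, n = 3) in SEF and 4.08% ± 0.647 in PEF. In PEF its place was held by *cdh6*, with 46.2% ± 3.31 of the sum compared with 2.36% ± 0.352 in SEF. The *CDH2* copy took 17.7% ± 0.222 in SEF and 32.6% ± 5.67 in PEF, where replicate 1 was highest at 39.0%. The other copy, *cdh2*, took 16.6% ± 0.275 and 15.5% ± 3.28. Every other classical cadherin took less than 2% in each library. These shares describe the libraries and were not tested on their own.

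**Figure D3:**
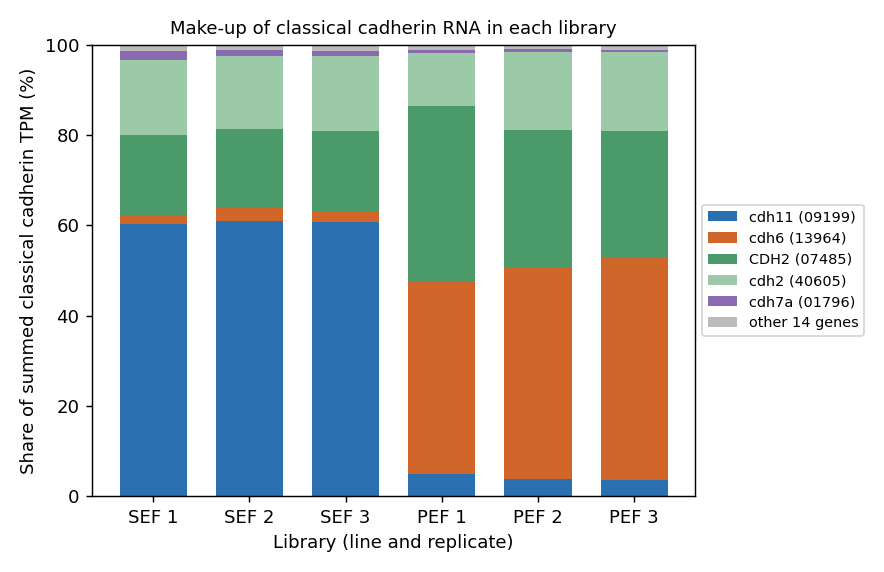
Share of the summed TPM of the 19 classical cadherins taken by each gene (vertical axis, percent) in each of the 6 libraries (horizontal axis), as stacked bars from 0. The *cdh11* segment is 60.3% to 61.0% in the SEF libraries and 3.58% to 4.82% in the PEF libraries, where *cdh6* takes 42.7% to 49.2%.

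At lower levels, cadherins better known from nerve and muscle also differed. *CDH18*, a type II cadherin of the brain, was at 0.03, 0.02 and 0.09 TPM in SEF and 6.13, 5.57 and 5.55 TPM in PEF, 150-fold higher (log2 fold change 7.23, SE 0.30, adjusted p = 3.64e-06). *CDH20*, another neural type II cadherin, had 1, 2 and 1 reads in SEF and 20, 56 and 118 in PEF, a ratio of 48.8 with a 95% counting interval of 18.8 to 181. Its 3 PEF libraries were far apart, and the log2 fold change of 5.47 (adjusted p = 0.00115) was 4.71 without PEF replicate 3. One copy of R-cadherin (*cdh4*, ENSAMXG00000016470) was at 2.13, 1.56 and 0.98 TPM in SEF and at most 0.04 TPM in PEF, a ratio of SEF to PEF of 41.6 (18.8 to 114). The other copy, *CDH4*, was at 2.89 to 3.38 TPM in SEF and 2.12 to 3.04 TPM in PEF, and did not differ beyond its spread (adjusted p = 0.536).

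M-cadherin (*cdh15*), the muscle cadherin, was at 2.29, 1.25 and 0.90 TPM in SEF and 0.15, 0.27 and 0.33 TPM in PEF (log2 fold change -2.51, adjusted p = 0.00223). The summed muscle markers were also lower, at 3.57 to 4.97 TPM in SEF and 0.50 to 1.12 TPM in PEF, and their part in the result was not tested. Of the 7 listed, only *desma* (log2 fold change -5.01, adjusted p = 0.000588 by edgeR) and *myog* (-1.45, adjusted p = 0.019) had enough reads to be tested. The others had at most 17 reads in any library, and *mylpfa* was at a mean of 0.133 TPM in both lines. *cdh7a* was at 12.6, 7.33 and 6.03 TPM in SEF and 6.34, 4.89 and 4.15 TPM in PEF. Its lines overlapped and it was not called (log2 fold change -0.66, adjusted p = 0.0808). It was called without SEF replicate 3 (adjusted p = 0.0371) and with a replicate block (adjusted p = 0.0305 by edgeR). P-cadherin (*CDH3*), of epithelia, had 7 to 35 reads per library, and its log2 fold change of -1.20 (adjusted p = 0.0285) was lost without SEF replicate 2 or 3 or PEF replicate 2 or 3 (adjusted p 0.0506 to 0.0915). The authors' TPM of *CDH3* was close in both lines, at 0.233 ± 0.0551 in SEF and 0.243 ± 0.0462 in PEF (SD, n = 3), with a difference of 0.012 on the log2(TPM + 1) scale by limma, adjusted p = 0.855.

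Several type II cadherins that differed lie close together. In the gene order of the RefSeq assembly AstMex3_surface, *cdh12a* is next to *cdh10a*, and a single protein-coding gene separates *cdh10a* from *cdh6*. The log2 fold changes along this run were -2.20 (adjusted p = 0.00244), 2.50 (adjusted p = 0.00253) and 5.07. Levels were far apart, as *cdh10a* had at most 4 reads in any SEF library and 10 to 17 in the PEF libraries, and *cdh12a* was at 0.98 to 1.28 TPM in SEF and 0.11 to 0.39 TPM in PEF. A second run holds *cdh5*, *cdh11* and *CDH8*, with a single protein-coding gene between the first pair and none between the second. Of these, *cdh11* alone was expressed at more than a few reads: *cdh5* had 0 reads and *CDH8* had 6, 3 and 4 reads in SEF and 0 in PEF. Since the genome build of the files is not given in the sources used here, no positions are given.

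Catenins link cadherin tails to the cell interior, and of the 7 listed with their p120 relatives 3 were higher and 3 lower in PEF. That is 42.9% of those tested in each direction, beside 30.4% of all genes higher and 33.1% lower. Alpha-catenin (*ctnna1*), the link to actin, was at 83.9, 93.0 and 83.5 TPM in SEF and 60.5, 68.1 and 54.9 TPM in PEF. The lines did not overlap, but the log2 fold change of -0.42 (SE 0.12, adjusted p = 0.0152) was lost without PEF replicate 3 (-0.35, adjusted p = 0.0649). p120-catenin (*ctnnd1*), which holds cadherins at the membrane, was at 88.1, 96.3 and 98.8 TPM in SEF and 141, 142 and 140 TPM in PEF. Its PEF libraries were all higher, with a log2 fold change of 0.68 (SE 0.10, adjusted p = 0.000962). Its neural relative delta-catenin rose in 1 copy, *ctnnd2a*, from 5.10, 5.27 and 3.25 TPM to 13.8, 20.1 and 18.2 TPM (log2 fold change 2.05, SE 0.23, adjusted p = 0.000235). The second copy, *ctnnd2b*, was not called (log2 fold change -0.72, adjusted p = 0.0873, or 0.0469 with DESeq2).

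The alpha-catenin relative *ctnnal1* was at 40.5 ± 9.02 TPM in SEF and 58.5 ± 8.52 TPM in PEF (SD, n = 3), with a log2 fold change of 0.57 (adjusted p = 0.0161) that was lost without PEF replicate 2 (0.49, adjusted p = 0.057). Both copies of plakophilin-4, a p120 relative found at adherens junctions, were lower in PEF. The abundant copy *PKP4* (ENSAMXG00000010785) was at 25.2, 24.2 and 18.02 TPM in SEF and 8.63, 11.2 and 11.4 TPM in PEF, 0.499 times the SEF level (SE 0.18 on the log2 scale, adjusted p = 0.00226). The copy *pkp4* was under 1.5 TPM in every library and fell by 3.03 on the log2 scale (adjusted p = 0.00111). Beta-catenin, which the rule does not take, was listed in 2 copies. The more abundant *ctnnb2* was at 404 to 443 TPM in SEF and 341 to 377 TPM in PEF and was not called (log2 fold change -0.05, SE 0.11, adjusted p = 0.682). The copy *ctnnb1* was at 64.5, 57.6 and 47.7 TPM in SEF and 87.2, 61.9 and 65.5 TPM in PEF, where the TPM ranges overlapped. It was called higher (log2 fold change 0.46, SE 0.15, adjusted p = 0.0301), a call lost without SEF replicate 2 or 3 or PEF replicate 1 (adjusted p 0.0523 to 0.0982) and with limma on TPM (adjusted p 0.126 to 0.157).

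Desmosome genes were expressed in both fibroblast lines, and RNA of the plaque genes differed in both directions. Desmoplakin (*dspa*), which binds the intermediate filaments, was at 51.4, 49.2 and 57.1 TPM in SEF and 81.2, 100.2 and 83.6 TPM in PEF. All PEF libraries were higher, with a log2 fold change of 0.83 (SE 0.15, adjusted p = 0.0021). Plakophilin-3 (*pkp3b*), which gathers desmoplakin at the membrane, rose from 5.64, 5.86 and 4.48 TPM to 16.2, 14.0 and 10.8 TPM (log2 fold change 1.51, SE 0.16, adjusted p = 0.000201). The epithelial keratins *krt8*, *krt18a.1* and *krt18b* were higher in PEF as well, by 1.67, 1.87 and 1.26 on the log2 scale, while *tp63* and *cldn7b* were lower, *krt4* was not called and *epcam* had no more than 3 reads. The summed epithelial markers were at 8141 to 9342 TPM in PEF against 3030 to 4182 TPM in SEF, and their part in these rises was not tested. Plakoglobin, which serves desmosomes and adherens junctions alike, fell in both copies. *jupa* was at 97.8, 97.8 and 90.6 TPM in SEF and 47.9, 41.3 and 40.4 TPM in PEF, 2.08-fold lower (log2 fold change -1.06, SE 0.09, adjusted p = 6.45e-05). *jupb* was at 8.28, 8.67 and 12.8 TPM in SEF and 1.08, 1.01 and 1.19 TPM in PEF, 8.74-fold lower (log2 fold change -3.13, SE 0.23, adjusted p = 3.2e-05).

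The desmosomal cadherins themselves differed little. The desmocollin *dsc2l* was at 30.8, 38.3 and 24.2 TPM in SEF and 30.5, 30.5 and 32.6 TPM in PEF, with the PEF values inside the SEF range (log2 fold change 0.10, SE 0.16, adjusted p = 0.612). Desmoglein-2 was listed in 3 copies. *DSG2* ENSAMXG00000039417 was at 14.3 ± 1.79 TPM in SEF and 10.9 ± 1.39 TPM in PEF (SD, n = 3) and was not called (adjusted p = 0.106). *DSG2* ENSAMXG00000035641 was at 6.31 ± 0.180 and 4.98 ± 0.121 TPM, with a log2 fold change of -0.29 (adjusted p = 0.0328) that was lost when any library but SEF replicate 2 was left out (adjusted p 0.0582 to 0.103). The third copy had at most 1 read in a library. *pkp2* was under 1 TPM and not called (log2 fold change 0.88, adjusted p = 0.153), although it was without SEF replicate 1 (1.54, adjusted p = 0.0202), and *pkp1b* and *pkp3a* had at most 4 reads and 1 read. Summed over the family, desmosome genes were at 215 ± 3.46 TPM in SEF and 194 ± 10.5 TPM in PEF.

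**Figure D4:**
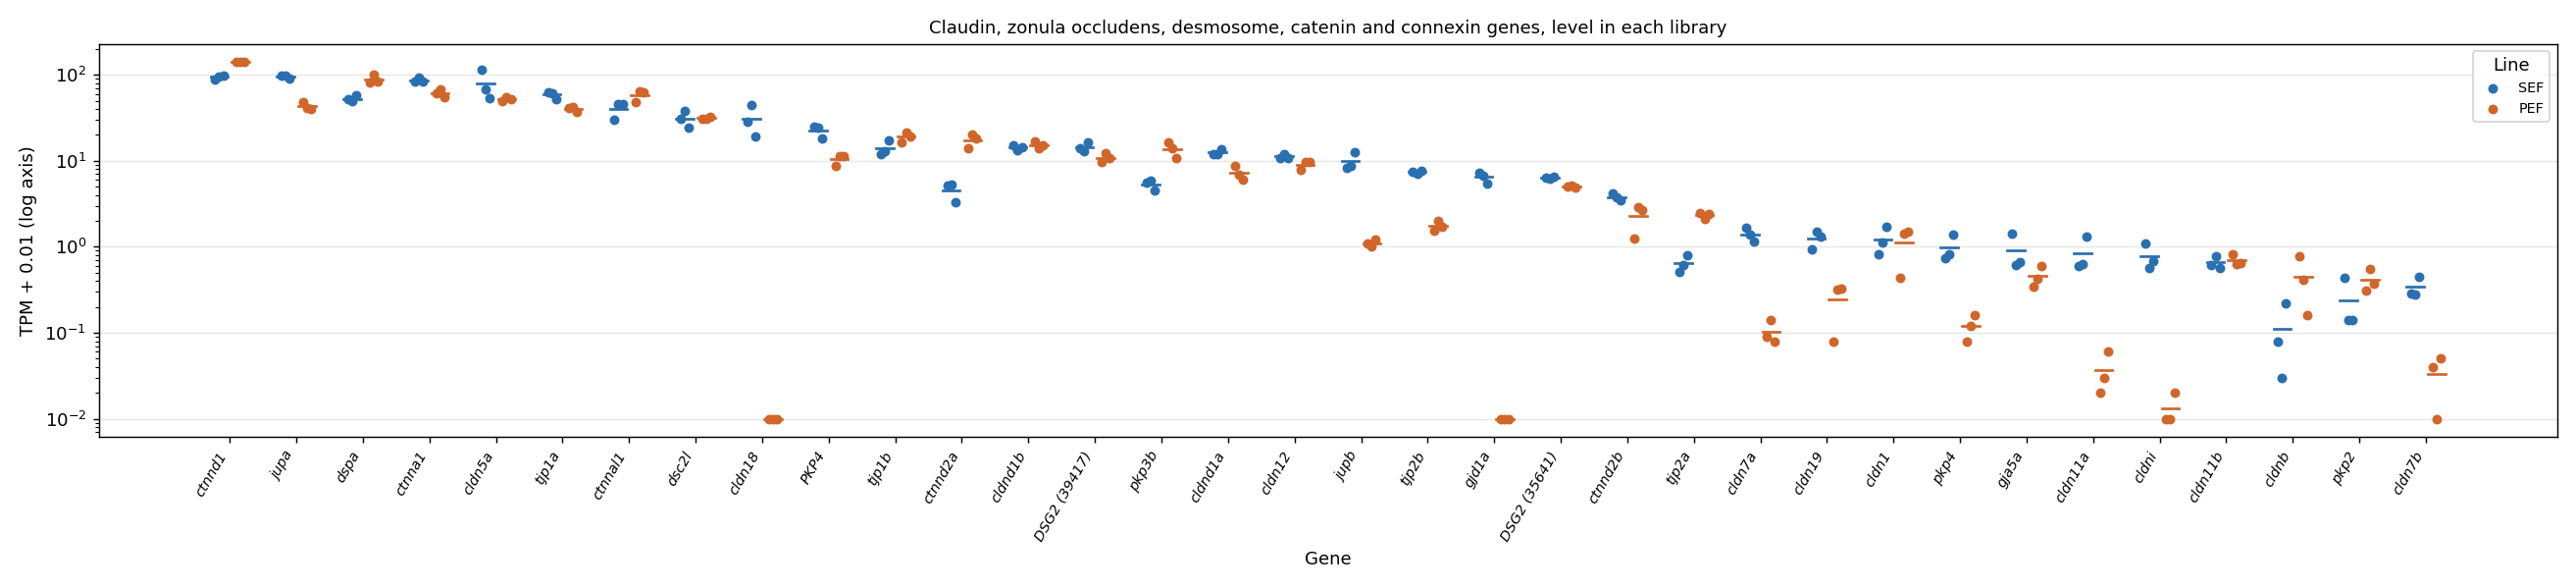
Level of the better covered catenin, desmosome, tight junction and connexin genes in each library (digits after a symbol are the last of its identifier) on a logarithmic axis of TPM + 0.01, where points are the 3 SEF and 3 PEF libraries and bars the line means. *jupa*, *jupb* and *tjp2b* are higher in all SEF libraries, *dspa*, *pkp3b* and *ctnnd1* are higher in all PEF libraries, and *cldn18* is at 0 in PEF.

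Among tight junction genes, most claudins were low or had no reads. Of 34 listed, 13 were tested and 8 called, 61.5% of those tested beside 63.5% of all genes. In PEF, 7 were lower (53.8%, beside 33.1% of all genes) and 1 was higher (7.69%, beside 30.4%). Claudin-18 (*cldn18*), known from lung and stomach, had 388, 705 and 302 reads in SEF (28.6, 44.2 and 19.0 TPM) and 0 reads in all PEF libraries. It was at least 143-fold lower in PEF against a floor of 3 reads per library (adjusted p = 0.000144 by edgeR). Claudin-5 (*cldn5a*), known from endothelium, was the most abundant claudin, at 115, 67.1 and 52.9 TPM in SEF and 49.1, 54.4 and 51.8 TPM in PEF. SEF replicate 3 lay among the PEF libraries and the gene was not called (log2 fold change -0.53, SE 0.28, adjusted p = 0.135), although it was without SEF replicate 3 (-0.77, adjusted p = 0.0267). Summed over the family, claudins were at 189, 157 and 129 TPM in SEF and 86.4, 88.6 and 85.9 TPM in PEF.

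*cldnd1a*, a claudin-domain gene, was at 12.04, 12.02 and 13.57 TPM in SEF and 8.73, 6.79 and 6.02 TPM in PEF (log2 fold change -0.79, SE 0.20, adjusted p = 0.00976). Its copy *cldnd1b* was at 14.2 ± 0.785 and 15.3 ± 1.37 TPM (SD, n = 3) and was not called (adjusted p = 0.166), nor was *cldn12* at 11.2 ± 0.709 and 9.02 ± 1.09 TPM (adjusted p = 0.172). The other claudins that fell were at 1.66 TPM or less in every library. The epithelial claudin-7 fell in both copies, by 3.80 for *cldn7a* (adjusted p = 8.07e-05) and by 3.41 for *cldn7b* (adjusted p = 0.00294), the latter ranging from -4.04 to -2.80 without PEF replicate 1 and PEF replicate 2. *cldn11a*, known from myelin, fell by 4.92 (adjusted p = 0.000313) and *cldn19* by 2.33 (adjusted p = 0.00603). *cldni* had 78, 49 and 59 reads in SEF and 0, 0 and 1 in PEF, a ratio of 185 with a 95% counting interval of 32.8 to 7340. The single rise, *cldnb* (log2 fold change 2.19, adjusted p = 0.0468), was under 1 TPM with overlapping libraries. It was lost when any library but SEF replicate 3 or PEF replicate 3 was left out (adjusted p 0.0884 to 0.129) and grew to 3.51 without SEF replicate 3. *cldn1* of the epidermis was not called (log2 fold change 0.02, adjusted p = 0.974).

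Occludin was nearly absent, with at most 3 reads for *oclna* and 1 for *oclnb* in any library, while its zonula occludens scaffolds were present. ZO-1 was mainly *tjp1a*, at 63.0, 61.7 and 51.8 TPM in SEF and 41.0, 42.4 and 37.4 TPM in PEF. All SEF libraries lay above all PEF libraries (log2 fold change -0.44, SE 0.11, adjusted p = 0.0101). The second ZO-1 copy, *tjp1b*, was at 11.98, 12.96 and 17.25 TPM in SEF and 16.6, 21.5 and 19.2 TPM in PEF. Its lines overlapped, and the log2 fold change of 0.55 (adjusted p = 0.0384) was lost without SEF replicate 1 or 2 or PEF replicate 2 or 3 (adjusted p 0.0766 to 0.12). ZO-2 was split between copies: *tjp2b* fell from 7.46, 7.10 and 7.65 TPM to 1.52, 2.0 and 1.72 TPM (log2 fold change -2.05, SE 0.17, adjusted p = 6.38e-05). *tjp2a* rose from 0.50, 0.61 and 0.78 TPM to 2.45, 2.11 and 2.41 TPM (log2 fold change 1.87, SE 0.23, adjusted p = 0.000355). *tjp3* had at most 13 reads.

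Protocadherins held some of the largest differences. Of the 20 nonclustered protocadherins, 14 were tested and 13 called, 92.9% beside 63.5% of all genes. In PEF, 6 were higher (42.9%, beside 30.4% of all genes) and 7 lower (50%, beside 33.1%). Protocadherin-12 (*pcdh12*), known from endothelium, was at 33.4, 38.0 and 31.2 TPM in SEF and 0, 0.10 and 0.06 TPM in PEF. It had 4579, 6079 and 5054 reads in SEF and 0, 17 and 12 in PEF, a log2 fold change of -9.06 (SE 0.57, adjusted p = 1.71e-05) that was -9.69 without PEF replicate 2. The endothelial markers *kdrl* and *fli1a* fell as well, by 2.28 (adjusted p = 0.000425) and 0.62 (adjusted p = 0.00237) on the log2 scale. The other endothelial markers listed were too low to test, and *cdh5* was at 0 reads in both lines. *egfl7* had 5, 6 and 3 reads in SEF and 9, 8 and 5 in PEF. *pecam1* and *tie1* had at most 10 reads in any SEF library and 0 in PEF. The part of endothelial cells in the result was not tested.

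*PCDH20* was at 53.9, 34.7 and 18.8 TPM in SEF and 0.94, 0.23 and 0.23 TPM in PEF, 74.3-fold lower. The libraries varied within both lines but did not overlap, and the log2 fold change of -6.22 (SE 0.67, adjusted p = 0.000187) was -7.16 without PEF replicate 1. Protocadherin-10 (*PCDH10* ENSAMXG00000015801), a neural adhesion molecule also called OL-protocadherin, was at 2.14, 1.55 and 1.56 TPM in SEF and 56.0, 32.3 and 25.7 TPM in PEF. It was 22.4-fold higher, highest in PEF replicate 1 (log2 fold change 4.49, SE 0.32, adjusted p = 2.84e-05). *pcdh18b* was at 26.7, 25.5 and 25.7 TPM in SEF and 80.8, 54.4 and 55.7 TPM in PEF (log2 fold change 1.37, SE 0.15, adjusted p = 0.000183). Its copy *pcdh18a* went the other way, from 1.01, 0.57 and 0.84 TPM to 0.09, 0.05 and 0.03 TPM (log2 fold change -3.73, SE 0.41, adjusted p = 0.00021).

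**Figure D5:**
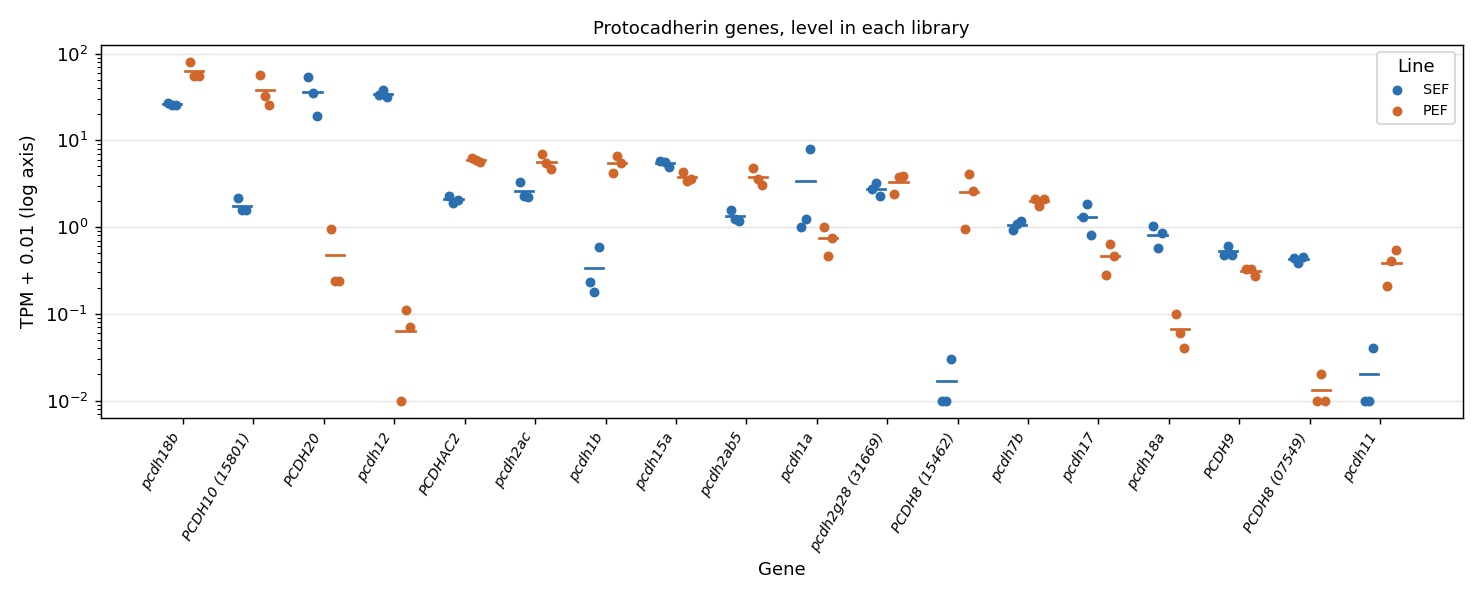
Level of the better covered protocadherins in each library on a logarithmic axis of TPM + 0.01, where points are the 3 SEF and 3 PEF libraries and bars the line means, and numbers after a symbol are the last digits of its identifier. *pcdh12* and *PCDH20* are higher in all SEF libraries, and *PCDH10* and *pcdh18b* are higher in all PEF libraries.

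Protocadherin-1 was also split. *pcdh1b* was at 0.22, 0.17 and 0.58 TPM in SEF and 4.21, 6.55 and 5.50 TPM in PEF (log2 fold change 4.15, SE 0.46, adjusted p = 0.000229, and 4.89 without SEF replicate 3). *pcdh1a* was at 0.98, 1.22 and 7.88 TPM in SEF and 1.0, 0.46 and 0.74 TPM in PEF, where SEF replicate 3 alone stood high. Its log2 fold change of -2.14 (adjusted p = 0.0564) was not called, and was -0.54 without SEF replicate 3 (adjusted p = 0.188). It was called without SEF replicate 1 (-2.57, adjusted p = 0.0283) or SEF replicate 2 (-2.55, adjusted p = 0.0357), with DESeq2 and without a filter.

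Protocadherin-8, the paraxial protocadherin of embryonic mesoderm, differed in opposite directions between its copies. *PCDH8* ENSAMXG00000007549 had 34, 34 and 41 reads in SEF and 0, 1 and 0 in PEF, a ratio of SEF to PEF of 108 with a 95% counting interval of 19.0 to 4317. *PCDH8* ENSAMXG00000015462 had 0, 0 and 2 reads in SEF and 71, 382 and 223 in PEF, a ratio of PEF to SEF of 340 (93.8 to 2814). Both were called, with log2 fold changes of -6.31 (adjusted p = 0.000103) and 8.13 (adjusted p = 0.000351) that were -8.17 without PEF replicate 2 and 10.77 without SEF replicate 3. *pcdh11* had 0, 1 and 2 reads in SEF and 15, 36 and 49 in PEF, a ratio of 33.5 (11.2 to 165), with a log2 fold change of 4.89 that was 5.71 without SEF replicate 3.

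Other nonclustered protocadherins were called as well. *pcdh7b* rose from 1.05 ± 0.136 to 1.97 ± 0.217 TPM (SD, n = 3, adjusted p = 0.00235 by edgeR). *pcdh15a*, whose product forms the tip links of hair cells, was at 5.41 ± 0.480 and 3.78 ± 0.488 TPM, and its log2 fold change of -0.39 (adjusted p = 0.0192) was lost without SEF replicate 1 or 2 or PEF replicate 2 or 3 (adjusted p 0.0557 to 0.082). *pcdh17* fell by 1.39 on the log2 scale (adjusted p = 0.0201), lost without SEF replicate 2 or PEF replicate 3 (adjusted p 0.0732 and 0.0521). *PCDH9* had a log2 fold change of -0.76 (adjusted p = 0.0417) and was called without PEF replicate 1 alone among the libraries left out (adjusted p up to 0.137 for the others).

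Clustered protocadherins lie in tandem arrays and give neurons distinct surface identities. Of 11 listed, 5 were tested, 3 were higher in PEF (60%, beside 30.4% of all genes), 1 was lower (20%, beside 33.1%) and 1 was not called. Summed over 11 listed genes they were at 9.68 ± 1.14 TPM in SEF and 19.3 ± 1.44 TPM in PEF (SD, n = 3). *PCDHAC2* was at 2.29, 1.90 and 2.03 TPM in SEF and 6.24, 5.99 and 5.64 TPM in PEF (log2 fold change 1.65, SE 0.14, adjusted p = 6.86e-05). *pcdh2ac* rose from 2.58 ± 0.595 to 5.69 ± 1.11 TPM (adjusted p = 0.0015 by edgeR) and *pcdh2ab5* from 1.32 ± 0.208 to 3.80 ± 0.897 TPM (adjusted p = 0.000148). Of 2 tested copies of *pcdh2g28*, ENSAMXG00000031669 was at 2.76 ± 0.470 and 3.34 ± 0.823 TPM (adjusted p = 0.917) and ENSAMXG00000037002 fell by 1.84 on the log2 scale (adjusted p = 0.00864). These genes resemble each other closely, so their reads could be split between copies.

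Few connexins with *gj* names were expressed. Of 11 listed, 3 were tested and 1 was called (33.3%, beside 63.5% of all genes). *gjd1a*, a teleost connexin of electrical synapses, had 102, 115 and 99 reads in SEF (7.24, 6.62 and 5.48 TPM) and 0 in all PEF libraries, at least 32.8-fold lower against a floor of 3 reads per library (adjusted p = 6.39e-05 by edgeR). *gja5a* was not called (log2 fold change -0.90, adjusted p = 0.0914). *GJC1* was close to the threshold (log2 fold change -1.11, adjusted p = 0.0505) and was called without SEF replicate 1 (adjusted p = 0.0476) or PEF replicate 3 (adjusted p = 0.0468).

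Duplicate copies did not always move together. Of 34 groups with at least 2 listed copies, 16 had at least 2 tested. In 4 of these, copies were called in opposite directions (*pcdh18a* and *pcdh18b*, *tjp1a* and *tjp1b*, *tjp2a* and *tjp2b*, and the *PCDH8* copies), in 4 the copies were called the same way (*cdh2*, *cldn7*, *jup* and *pkp4*), and in 8 at most 1 copy was called. The *tjp1* and *cdh2* groups each rest on a call that was lost when single libraries were left out. Of all genes tested, 30.4% were called higher and 33.1% lower, so unrelated genes would also often be called in opposite directions or the same way. How often other gene pairs did so was not counted, and these counts show no trait of duplicates.

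Genes of the same junctions outside the symbol rule were followed in lists of nectins and beta-catenins, tight junction partners, polarity complexes, atypical cadherins, desmosome partners, regulators and pannexins. Of 110 listed genes, 82 were tested and 55 called, 67.1% beside 63.5% of all genes. In PEF, 23 were higher (28.0%, beside 30.4% of all genes) and 32 lower (39.0%, beside 33.1%). Of 18 tight junction partners tested, 5 were higher (27.8%, beside 30.4% of all genes) and 8 lower (44.4%, beside 33.1%). The largest of all these rises was *cxadr*, the coxsackie and adenovirus receptor that sits beside tight junctions, with 0, 4 and 3 reads in SEF and 5133, 5997 and 5398 in PEF. That is 0, 0.18 and 0.14 TPM against 229, 218 and 210.4 TPM (log2 fold change 11.14, SE 0.35, adjusted p = 1.69e-06). The junctional adhesion molecule *jam3b* was lower, from 10.2, 10.6 and 14.1 TPM to 2.31, 2.28 and 2.66 TPM (log2 fold change -2.17, SE 0.16, adjusted p = 3.95e-05).

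Atypical cadherins, mostly large relatives that set tissue polarity, gave 3 higher (25%, beside 30.4% of all genes) and 6 lower (50%, beside 33.1%) of 12 tested. Their list also holds *clstn1*, *clstn3* and *cdhr1a*. *cdhr1a* had 469, 482 and 386 reads in SEF and 0 in all PEF libraries. It was at least 139-fold lower against a floor of 3 reads per library (adjusted p = 2.37e-05 by edgeR). Protocadherin Fat1 was again split between copies. *fat1a* was at 18.8, 16.8 and 17.9 TPM in SEF and 54.0, 55.9 and 49.8 TPM in PEF (log2 fold change 1.66, SE 0.11, adjusted p = 2.36e-05), and *fat1b* at 11.5, 10.8 and 10.6 TPM in SEF and at most 0.06 TPM in PEF (log2 fold change -8.19, SE 0.39, adjusted p = 5.95e-06). *celsr1a*, of planar polarity, fell by 2.82 (adjusted p = 2.33e-05) and *FAT4* by 3.14 on the log2 scale (adjusted p = 0.000117). The other Celsr1 copy, *celsr1b*, rose from 0.27, 0.45 and 0.57 TPM to 12.9, 5.32 and 4.11 TPM (log2 fold change 4.14, SE 0.49, adjusted p = 0.000292). Polarity complexes gave 6 higher (46.2%, beside 30.4% of all genes) and 3 lower (23.1%, beside 33.1%) of 13. Among them were *pard6b* (log2 fold change 1.39, adjusted p = 0.000462) and *llgl1* (log2 fold change -1.70, adjusted p = 4.63e-05). Their relatives differed. *pard6a* was higher (log2 fold change 2.48, adjusted p = 0.0025 by edgeR). *pard6gb* was lower, at a mean of 27.1 TPM in SEF and 8.94 TPM in PEF (log2 fold change -1.46, adjusted p = 0.00131). *llgl2* was not called (log2 fold change -0.29, adjusted p = 0.0627). Of 9 nectin and beta-catenin list genes tested, 4 were higher (44.4%, beside 30.4% of all genes) and 1 lower (11.1%, beside 33.1%). The higher ones included afadin (*afdna*, log2 fold change 0.69, adjusted p = 0.0017), and the lower one was the vinculin copy *vcla* (log2 fold change -4.12, adjusted p = 3.05e-05), while *vclb*, at 115 to 160 TPM in SEF and 138 to 171 TPM in PEF, was not called (adjusted p = 0.248). Of 7 desmosome and hemidesmosome partners tested, 3 were called (42.9%, beside 63.5% of all genes), all of them lower (42.9%, beside 33.1% of all genes). Among them was the plectin copy *pleca* (log2 fold change -1.03, adjusted p = 0.00365). The copy *plecb*, at 52.7 to 63.1 TPM in SEF and 38.7 to 61.6 TPM in PEF, was not called (log2 fold change -0.19, adjusted p = 0.331).

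Regulators that switch cells between epithelial and mesenchymal states were called in both directions. Of 11 mesenchymal regulators tested, 63.6% were called beside 63.5% of all genes. In PEF, 2 were higher (18.2%, beside 30.4% of all genes) and 5 lower (45.5%, beside 33.1%). The cadherin repressor *zeb2b* was at 15.61, 15.04 and 10.92 TPM in SEF and 0.13, 0.18 and 0.15 TPM in PEF (log2 fold change -6.36, SE 0.23, adjusted p = 2.49e-06), and *zeb1b* fell by 2.30 (adjusted p = 6.21e-05). Their copies were not called. *zeb2a* was at a mean of 16.7 TPM in SEF and 23.6 TPM in PEF (log2 fold change 0.58, adjusted p = 0.0653 by edgeR). *zeb1a* was at 6.97 and 5.86 TPM (log2 fold change -0.17, adjusted p = 0.578). The mesenchymal homeobox gene *prrx1b* fell from 283, 186 and 182 TPM to 29.97, 15.51 and 14.75 TPM (log2 fold change -3.39, SE 0.32, adjusted p = 0.000105). In contrast, *twist1a* rose from 19.1, 14.2 and 13.8 TPM to 111, 50.4 and 44.6 TPM (log2 fold change 2.20, SE 0.34, adjusted p = 0.00104). The other gene called higher was *snai1b* (log2 fold change 0.80, adjusted p = 0.0143). Also not called were *snai2* (log2 fold change 1.35, adjusted p = 0.0639) and *twist2* (-0.90, adjusted p = 0.0813). Of 8 epithelial regulators tested, 2 were higher (25%, beside 30.4% of all genes) and 4 lower (50%, beside 33.1%). The higher ones were *grhl2a* (log2 fold change 0.82, adjusted p = 0.027 by edgeR) and *grhl3* (1.56, adjusted p = 0.0188), at mean levels of 0.413 and 0.39 TPM in PEF. The most abundant, the protease inhibitor *spint1a*, fell from 9.35, 9.79 and 11.3 TPM to 1.84, 1.59 and 1.49 TPM (log2 fold change -2.53, SE 0.14, adjusted p = 9.26e-06). The others called lower were *tp63*, *spint1b* and *cdx1b*, at mean levels of 0.81, 0.52 and 0.233 TPM in SEF.

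The symbol rule also takes 4 genes by their letters alone. *dscc1*, which acts in sister chromatid cohesion, was at 29.4 ± 4.16 TPM in SEF and 13.1 ± 1.21 TPM in PEF (SD, n = 3, log2 fold change -1.35, adjusted p = 0.00051 by edgeR). Of the immunoglobulin-type adhesion genes of the Down syndrome family, *dscamb* was under 1 TPM and fell by 3.37 on the log2 scale (adjusted p = 0.000274), and *dscaml1* was not called (adjusted p = 0.775). Without these 4 genes, 53 of 69 tested junction genes were called (76.8%, beside 63.5% of all genes). Of these, 23 were higher in PEF (33.3% of those tested, beside 30.4% of all genes) and 30 lower (43.5%, beside 33.1%).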

How the data were processed

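RNA was sequenced from 3 libraries each of SEF and PEF, grouped by the cell line in the labels, with a stranded mRNA kit. The authors deposited read counts per gene from STAR 2.7.3a, not normalized, with 4 further rows for reads on no gene, which were left out. These were reads outside genes (29.3% to 31.7% of a library), multimapping (4.28% to 4.67%), ambiguous (0.142% to 0.198%) and unmapped (4.26% to 5.05%) reads. The authors also deposited TPM values from RSEM, rounded to 2 decimals. The build, the annotation and the strand setting of counting are not given in the sources used here, so a gene and an overlapping or antisense gene may share reads. The counts and TPM can disagree: 16 junction genes had 0 reads in all libraries, and 3 of these had a TPM above 0. No column was left unused.

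Differences were tested in R 4.3.3 with edgeR 4.0.16 (TMM, filterByExpr, quasi-likelihood, Benjamini-Hochberg over all 16670 genes tested, adjusted p under 0.05). Levels are the authors' TPM, and standard errors come from the F statistic. Overlap between libraries was judged on normalized counts. Where a line had at most 3 reads in every library, a lower bound against 3 reads per library is given if it had 0, and otherwise the ratio of summed reads with its exact 95% binomial interval. Both cover counting error only. Alternatives were DESeq2 1.42.0, limma 3.58.1 on log2(TPM + 1) or log2(TPM + 0.1), other filters and normalization, a replicate block, leaving out each library and testing for differences beyond a log2 fold change of 1.

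The junction genes named are those with a mean of at least 5 TPM in either line and defining genes of each junction. Named as well are the 10 largest rises and 10 largest falls among called genes that averaged 100 or more reads in 1 line without overlap. Only part of the called genes of the lists are named. These list genes and other genes were named after their values were seen. The junction genes and the lists were chosen with earlier results of these data known. For neighbors, 73 of 100 symbols carried by a single listed gene were matched to AstMex3_surface.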

Additional observations from a re-analysis of the deposited data

How the results depend on the processing

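The 55 calls among 72 junction genes tested became 31 of 47 with at least 10 reads in every library. They became 33 of 45 with limma on log2(TPM + 1) or log2(TPM + 0.1) above 1 TPM in 3 libraries. For differences beyond a log2 fold change of 1 they became 35 of 72. The first 3 settings tested fewer genes. Among all genes, the 10579 calls became 7700 with at least 10 reads in every library. With limma they became 9079 on log2(TPM + 1) and 9005 on log2(TPM + 0.1), above 1 TPM in 3 libraries. The 55 calls among 82 partner, polarity and regulator genes tested became 33 of 59 with 10 reads in every library. Beyond a log2 fold change of 1 they became 36 of 82, and 5103 of 16670 among all genes. Leaving out each library gave 49 to 55 junction genes, 50 to 55 partner genes and 9289 to 10968 genes in all. Of the 55 junction genes called, 35 kept the call under every alternative, and 45 leaving aside the test beyond a log2 fold change of 1. *CDH3* reversed, to 0.012, with limma on log2(TPM + 1) without a filter, and the cause was not tested. DESeq2 called 63 junction genes of 98 tested, and 11852 genes in all.

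The replicate numbers do not pair the samples: the deviations of same-numbered libraries correlated at -0.05, 0.06 and -0.14. With a replicate block, 51 of 72 junction genes, 55 of 82 partner genes and 9735 of 16670 genes in all were called. The median log2 fold change of all genes tested was -0.02, and -0.15 with DESeq2 and -0.17 without a filter, which test more low genes. Over the 16670 genes of the first test, every scaling moved it by less than 0.1. Genes with 0 to 3 reads in a line give only bounds or wide counting intervals.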

Other observations

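Most connexins of these lines carry names beginning with *cx*, which the symbol rule does not take, and they were looked up after the values were seen. Of 24 listed, 7 were tested. In PEF, 3 were higher (42.9%, beside 30.4% of all genes) and 2 lower (28.6%, beside 33.1%). *cx43*, the main connexin of fibroblasts, was at 194.2, 229.9 and 220.3 TPM in SEF and 709, 578 and 544 TPM in PEF. All PEF libraries were higher, by 3.02-fold (log2 fold change 1.59, SE 0.12, adjusted p = 3.95e-05 by edgeR). *cx40.8* went the other way, from 20.2, 26.2 and 29.0 TPM to 5.07, 3.36 and 2.69 TPM (log2 fold change -2.72, SE 0.24, adjusted p = 8.19e-05), and *cx43.4* was also lower (log2 fold change -0.73, SE 0.17, adjusted p = 0.00743).

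Pannexins, channel proteins related in shape to connexins, differed by member. *panx3*, known from bone and cartilage, was at 10.6, 9.12 and 7.06 TPM in SEF and had 0 reads in all PEF libraries, at least 149-fold lower against a floor of 3 reads per library (adjusted p = 2.68e-05 by edgeR). *panx1b* fell by 0.86 on the log2 scale (adjusted p = 0.00141), and its copy *panx1a* was not called (log2 fold change -0.10, adjusted p = 0.574). *panx2* was higher, with 1, 1 and 3 reads in SEF and 24, 23 and 19 in PEF. Its log2 fold change was 3.64 (adjusted p = 0.000347 by edgeR), with a ratio of 13.3 (5.41 to 42.3). Of 4 pannexins tested, 1 was higher (25%, beside 30.4% of all genes) and 2 lower (50%, beside 33.1%).

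The claudin ENSAMXG00000035274, named *CLDN4*, had 0 reads in all 6 libraries of the count table while the authors' TPM listed it at 0.84, 0.94 and 9.97 in SEF and 1.05, 0.10 and 0.16 in PEF.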
